A study of Caenorhabditis elegans with 4 samples.

Results

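The genes described here encode the subunits of the proteasome in Caenorhabditis elegans, and the question asked of them was where the tagged K09A11.1 protein was recovered at their promoters in the late embryo. They were chosen by name, as every protein-coding gene whose symbol begins with pas-, pbs-, rpt- or rpn- followed by a digit, which gave 33 of the 19973 protein-coding genes on the 6 nuclear chromosomes. Chromatin immunoprecipitation with sequencing was done on whole hermaphrodite embryos of strain OP372, genotype unc-119(tm4063) III; wgIs372, an integrated line that makes K09A11.1 with GFP and FLAG tags at its C terminus. Chromatin was sheared by sonication and precipitated with an antibody to GFP. All 4 libraries form 1 group, 2 biological replicates with 2 technical libraries each, so no treated, mutant or stage comparison exists. The line is 1 strain with the tagged transgene added, the embryos are whole, and signal from different cells cannot be told apart.

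The proteasome degrades proteins that carry ubiquitin. Its core particle is a barrel of alpha rings (pas genes), which gate the entrance, and beta rings (pbs genes), which hold the proteolytic sites. The regulatory particle that caps the barrel has a base of ATPases (rpt genes), which unfold substrates and feed them inwards, and non-ATPase subunits (rpn genes) that act as scaffolds, bind ubiquitin or remove it. In worms, a form of the transcription factor SKN-1 is known to raise the expression of proteasome genes when proteasome activity falls. These roles are background, most of them worked out on yeast and human proteasomes.

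Within the promoter windows of the proteasome genes, the strongest K09A11.1 sites lay at regulatory particle genes. The thresholded list holds 689 regions that the authors kept, all of them also in the pooled list. It is labelled as thresholded by IDR, the irreproducible discovery rate, a measure of agreement between ranked lists. Being on the thresholded list does not by itself show that both replicates ranked a region alike. Its peaks had a summit in the promoter window of 4 of the 33 genes (12.1%), against 2.49% of all protein-coding genes. These 4 were rpn-7, rpn-3, rpt-2 and rpt-6, which is 4 of 19 regulatory particle genes (2 of 6 rpt genes and 2 of 13 rpn genes). The core particle had 0 of 14, which in so short a list cannot be told from the 2.49% of all genes. Weaker regions were common: in the pooled ranked list, which holds 30000 regions from both replicates together, 24 of the 33 genes (72.7%) had a region, against 42.2% of all genes. That list reached the core particle as well, with 10 of its 14 genes and 14 of 19 regulatory particle genes. The promoter window ran from 1000 bp upstream to 200 bp downstream of each annotated 5′ end, and the signal of a region is the authors' own value, from 7.02 up in the pooled list and from 30.4 up in the thresholded list. The files give no counts, so the depth behind each value is unknown. The count of 4 became 2 when each summit went only to the gene of nearest 5′ end (against 1.73% of all genes), 2 for the 344 highest regions (against 1.16%) and 8 for the 1378 highest (against 4.97%). With a window of 2000 bp upstream it was 5 (against 3.41%), and the gene added was a core particle gene, pbs-5. At rank 1000 or better were the sites of 6 proteasome genes (18.2%), against 3.66% of all genes. They were 5 of 19 regulatory particle genes (26.3%) and 1 of 14 core particle genes (7.14%). These are counts over genes of 1 experiment and carry no test.

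**Figure D1:**
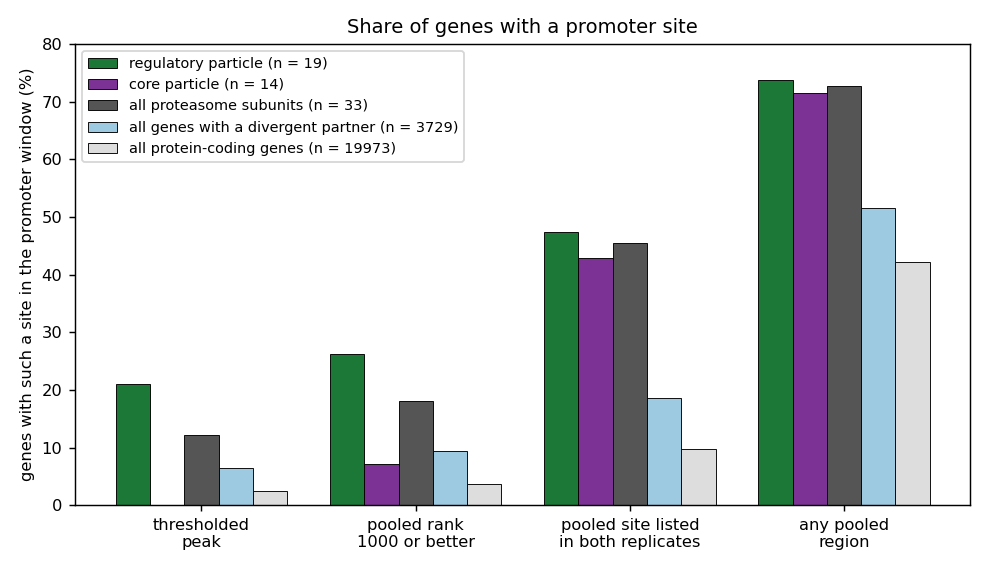
Share of genes, in percent, with a promoter site of each kind, for the regulatory particle, the core particle, all proteasome subunits, all genes that have a divergent partner and all protein-coding genes, with the number of genes in the legend. The core particle has no thresholded peak, against 2.49% of all genes, a share from which 0 of 14 cannot be told apart. Its share with any pooled region (10 of 14 genes) stands beside that of the regulatory particle (14 of 19).

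The highest signal was at rpn-7, a lid subunit of the regulatory particle, on ce11 chrIV:9316081-9316420. Its value was 75.2 in the pooled list, at rank 124, and it was 49.7 in the replicate 1 list, at rank 130, and 26.3 in the replicate 2 list, at rank 141. All 3 lists put the summit at the same base, -380 bp from the nearest 5′ end of rpn-7 (negative is upstream). That base is in intergenic sequence and 36 bp from the 5′ end of F49C12.9, the gene on the other strand that points away from rpn-7, so the peak cannot be given to rpn-7 alone. The peak at rpn-3, another lid subunit, covered chrIII:8446996-8447335 with a pooled signal of 59.1 at rank 212, and with 40.0 in replicate 1 and 14.2 in replicate 2. It sits between rpn-3 and hsp-110, which encodes a chaperone of the Hsp70 superfamily, and its summit is 187 bp from rpn-3, the nearer of these 5′ ends. An annotated noncoding RNA gene, C30C11.14, lies within 200 bp of that summit.

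Both ATPase genes had lower signals than these lid genes. The peak at rpt-2, whose yeast counterpart takes part in opening the gate of the core, covered chrV:6017650-6017989 with a pooled signal of 39.7 at rank 446. It had 22.0 in replicate 1 (rank 598) and 14.3 in replicate 2 (rank 526), so it ranked alike in both. Its summit is 150 bp from the 5′ end of aps-1, an adaptor complex subunit used in vesicle coats, and at -151 bp from rpt-2, which places it midway between these divergent genes, and it lies within 200 bp of the noncoding RNA gene F29G9.10. The rpt-6 peak, at chrIII:12370068-12370407 with its summit at -218 bp, had a pooled signal of 38.2 at rank 473. It was the least even of the 4, with 28.4 in replicate 1 (rank 390) and 8.75 in replicate 2 (rank 2002). No window of another protein-coding gene held its summit, which makes it the only one of the 4 thresholded peaks that belongs to a proteasome gene's window alone.

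The sequence under these 4 summits is shown because 3 of the 4 carry a word of 9 bases, spelled in 1 of 2 ways, as does cdc-48.1, the gene of an ATPase that pulls ubiquitin-tagged proteins out of complexes and hands them on for degradation. Each line gives bases of the RefSeq WBcel235 assembly, the build also named ce11, centred on the summit and written 5′ to 3′ on the strand of the named gene. Capitals mark the word TGTCATCAT or TATCATCAT, or the same word read from the opposite strand, as in cdc-48.1. The rpn-7 window was shortened to leave out transcribed bases of its neighbour. The windows are rpn-7 chrIV:9316216-9316301 (plus strand), rpt-2 chrV:6017770-6017870 (minus strand), rpt-6 chrIII:12370188-12370288 (plus strand), cdc-48.1 chrII:10563512-10563612 (minus strand) and rpn-3 chrIII:8447116-8447216 (plus strand), which has no such word.
rpn-7: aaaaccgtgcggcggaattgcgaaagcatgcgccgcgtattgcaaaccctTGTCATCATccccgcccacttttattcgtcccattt
rpt-2: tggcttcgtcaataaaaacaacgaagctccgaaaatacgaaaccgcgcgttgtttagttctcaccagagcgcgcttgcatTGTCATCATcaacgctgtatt
rpt-6: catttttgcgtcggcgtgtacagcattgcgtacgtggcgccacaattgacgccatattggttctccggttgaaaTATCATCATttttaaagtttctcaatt
cdc-48.1: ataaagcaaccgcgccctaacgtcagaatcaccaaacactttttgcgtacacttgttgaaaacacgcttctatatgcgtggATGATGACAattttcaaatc
rpn-3: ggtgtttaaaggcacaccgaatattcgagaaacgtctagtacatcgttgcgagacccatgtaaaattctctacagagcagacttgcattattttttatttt

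The 6-base words TGTCAT and TATCAT, which are known as the core of the SKN-1 site, were searched on both strands within 50 bp of each gene's highest pooled summit. Either word was found in 7 of the 24 proteasome windows (29.2%), at pas-2, pbs-1, rpt-2, rpt-4, rpt-6, rpn-7 and rpn-8, against 8.79% of the 7330 distinct windows of all protein-coding genes and 7.65% of the 353 windows of thresholded promoter peaks. The rpt-4 site lay in an intron of rpt-4, upstream of a 5′ end inside the gene, and nearer to the 5′ end of another gene. TGTCAT alone was in 5 of the 24 (20.8%), against 4.30% of all windows, and TATCAT in 2 of the 24 (8.33%), against 4.71%. The longer words TGTCATCAT and TATCATCAT, each of which holds the shorter one, were chosen after these sequences had been seen. They were in 4 of the 24 windows (16.7%), those of pas-2, rpt-2, rpt-6 and rpn-7, against 21 of all 7330 windows (0.286%). The pas-2 site was weak, with a pooled signal of 9.65 at rank 15318. Neither replicate list had a region within 100 bp of its summit. Among those 353 thresholded windows, 4 held a longer word, and these are the peaks of rpn-7, rpt-2, rpt-6 and cdc-48.1. Over the whole 500 bp upstream of the outermost 5′ end, a shorter word occurred at 16 of 33 proteasome genes (48.5%), against 45.3% of all genes. By word, TGTCAT was at 11 of 33 (33.3%), against 22.9%, and TATCAT at 7 of 33 (21.2%), against 29.5%. For genes with another gene's 5′ end within 1000 bp upstream on the other strand, either word was at 15 of 22, against 42.6%. A longer word occurred in these 500 bp at 4 of 33 (12.1%), against 2.44%. They are the same 4 genes as at the summits, and the words were picked from such sequences, so this is no further comparison. A match in letters is not a binding site, and whether SKN-1 or K09A11.1 touches these bases was not tested.

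The 6 genes next in pooled signal were rpn-11, rpn-2 and rpn-9 of the regulatory particle and pbs-1, pas-5 and pbs-7 of the core, with pbs-1 second after rpn-11. The gene of rpn-11, the subunit that cleaves ubiquitin from substrates, had a pooled signal of 27.4 at rank 813, with 18.7 in replicate 1 (rank 817) and 6.73 in replicate 2 (rank 4527). Its summit, at -28 bp, was the closest to a 5′ end of all 24. The scaffold gene rpn-2 had 24.6 at rank 1006, with 14.3 in replicate 1 (rank 1710) and 6.0 in replicate 2 (rank 6402), from a site at -172 bp that it shares with C23G10.7. The lid subunit gene rpn-9 had 21.4 at rank 1349 in the pooled list. There replicate 1 gave 5.89, at rank 23779, whereas replicate 2 gave 14.7, at rank 494, within the highest 689 regions of that list, as many as the thresholded list holds. None of these sites reached the thresholded list, whose lowest signal is 30.4.

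Of the remaining regulatory particle genes, 7 had weaker pooled regions. The ATPase genes rpt-4, rpt-5 and rpt-3 had 18.0, 12.9 and 10.6, and the lid genes rpn-5, rpn-6.1, rpn-8 and rpn-12 had 17.3, 15.6, 10.8 and 7.29. For rpn-6.1, whose human counterpart stabilises the contact of the regulatory and core particles, the site lay in its own intron, with 17.8 in replicate 1 (rank 903), while replicate 2 had only another region, of 4.09. The reverse held for the promoter of rpn-8, the catalytically inactive partner of rpn-11, which had no region in replicate 1 and 11.4 in replicate 2 (rank 917). The rpn-12 region is shared with rad-23, its divergent neighbour and the gene of a shuttle protein that brings ubiquitin-tagged substrates to the proteasome, and is nearer to rad-23.

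**Figure D2:**
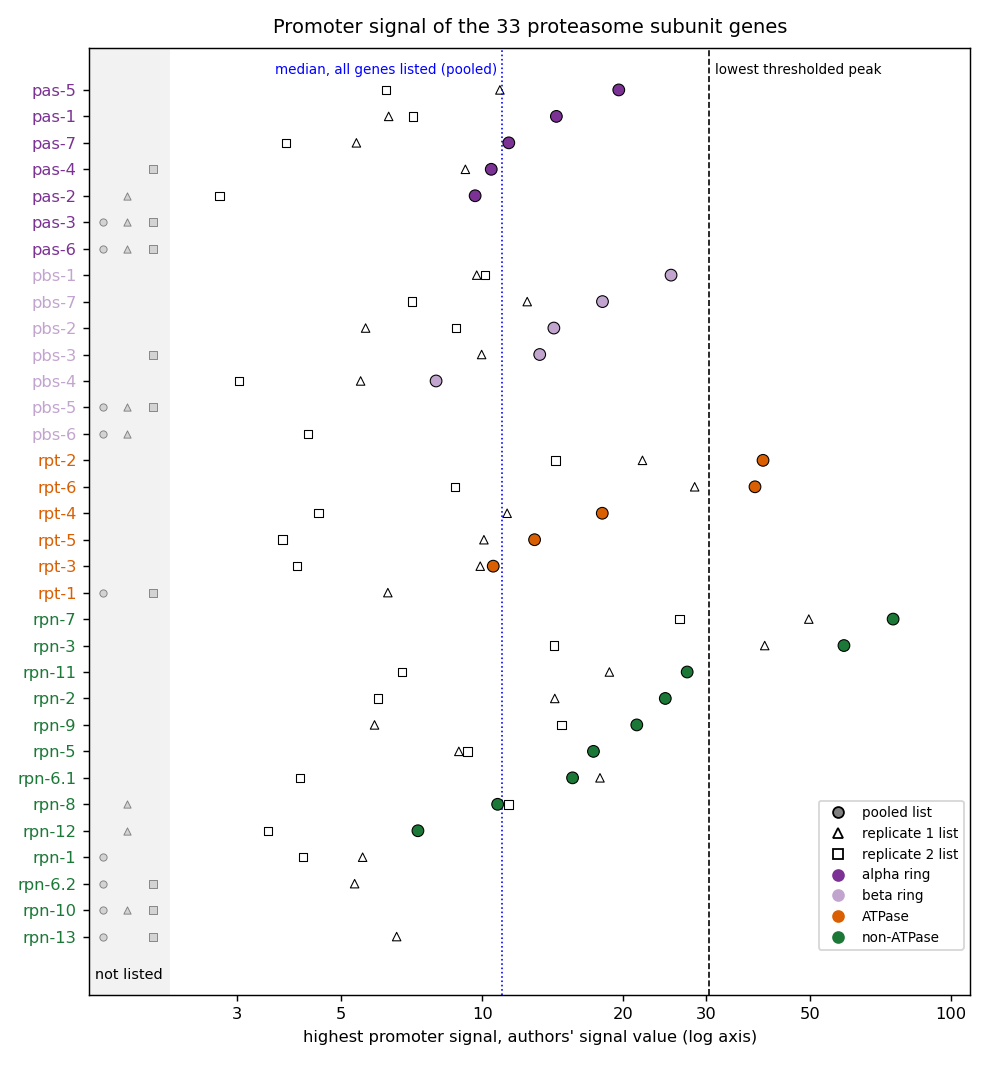
Highest promoter signal of each of the 33 genes (authors' signal value, log axis) in the pooled list (filled circles, coloured by subunit class), the replicate 1 list (triangles) and the replicate 2 list (squares), with genes that a list does not hold drawn in grey at the left edge; signals are not scaled between lists. Only rpn-7, rpn-3, rpt-2 and rpt-6 stand right of the lowest thresholded signal of 30.4 (dashed line), and the dotted line is the pooled median of all listed genes, 11.0.

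Core particle genes had no thresholded promoter peak (0 of 14, against 2.49% of all genes), and their listed values overlapped those of the regulatory particle. The highest was pbs-1, a beta ring subunit whose yeast counterpart carries a proteolytic site, with 25.3 at rank 942 from a site at -171 bp shared with K08D12.3. It had 9.73 in replicate 1 (rank 6662) and 10.1 in replicate 2 (rank 1261). In the alpha ring, pas-5 was highest with 19.6 at rank 1681, from a site at -413 bp in no other gene's window, with 10.9 in replicate 1 (rank 4453) and 6.24 in replicate 2 (rank 5691). The beta ring gene pbs-7 had 18.0 at rank 2113, with 12.5 in replicate 1 (rank 2714) and 7.07 in replicate 2 (rank 3871). These 3 sites were thus listed in both replicates, below the highest 689 in each. The other 7 core genes with a pooled region ran from 7.97 at pbs-4 to 14.4 at pas-1. Over the genes listed, the median pooled signal was 13.7 in the 10 core genes, 19.7 in the 14 regulatory particle genes and 16.4 in all 24, against 11.0 in the 8420 listed genes of the genome. In the replicate 1 list the medians were 9.20 in core genes and 10.7 in regulatory particle genes, and in the replicate 2 list 6.24 and 6.73. The difference between the particles was not tested, and the medians leave out the genes with no region.

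For 9 genes the pooled list had no summit in the window: pas-3, pas-6, pbs-5 and pbs-6 of the core, the ATPase gene rpt-1, the scaffold gene rpn-1, the ubiquitin receptor genes rpn-10 and rpn-13, and rpn-6.2, a second gene of the rpn-6 kind. Neither ubiquitin receptor gene therefore had a pooled region. Of the 9, rpn-1 was in both replicate lists, with 5.56 in replicate 1 and 4.15 in replicate 2, and its nearest pooled region lay at -9652 bp. In 1 replicate list only were rpt-1, rpn-6.2 and rpn-13 (6.29, 5.34 and 6.57 in replicate 1) and pbs-6 (4.25 in replicate 2). The remaining 4, pas-3, pas-6, pbs-5 and rpn-10, were in no list. The next gene upstream lies on the same strand, 110 bp from pbs-5 and 118 bp from rpn-10. It does so too at rpn-6.2 (54 bp), listed in replicate 1 only, and at pas-1 (106 bp) and pbs-3 (22 bp), which had pooled regions. Whether such genes are transcribed from a start further upstream was not tested. The strongest pooled region within 2000 bp of any proteasome gene lies just outside this window, at -1146 bp from pbs-5, a beta ring subunit whose yeast counterpart carries a proteolytic site. That peak, at chrI:14721543-14721674, is in the thresholded list with a signal of 107 at rank 44, with 71.4 in replicate 1 and 34.7 in replicate 2. It lies in an intron of K05C4.2, the next gene upstream on the same strand, 268 bp from that gene's 5′ end.

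**Figure D3:**
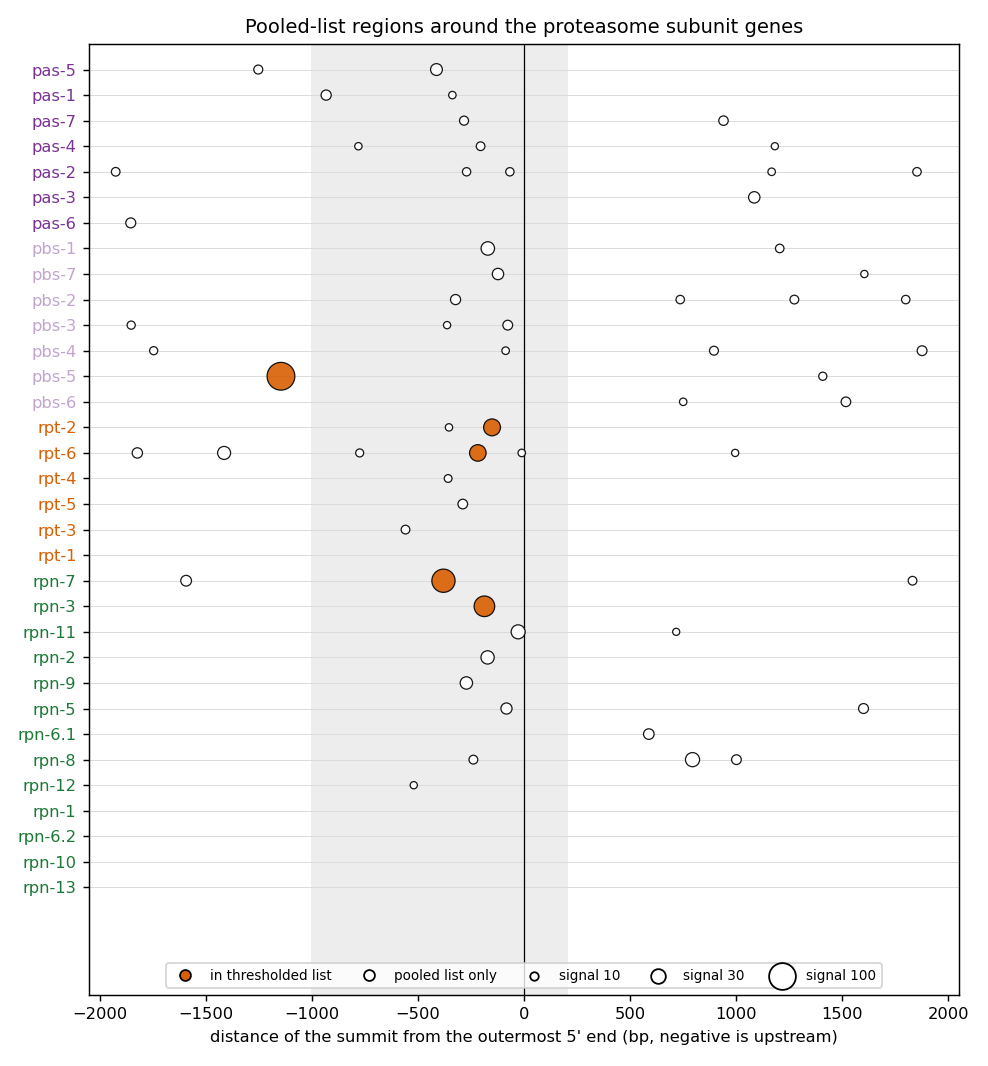
Pooled-list regions within 2000 bp of the outermost annotated 5′ end of each gene, by distance of the summit in bp (negative is upstream), with circle area proportional to signal and thresholded peaks filled; grey marks the window around that 5′ end. Peaks of rpt-2, rpt-6, rpn-3 and rpn-7 lie at -380 to -151 bp and the pbs-5 peak at -1146 bp, while the regions counted for rpt-4 and rpn-6.1 belong to a 5′ end inside the gene and so fall right of the grey band or off the axis.

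The sites clustered close upstream of the genes. All 24 pooled sites of proteasome genes were upstream of the 5′ end they were counted for, against 87.4% of the sites of all genes, and 21 of 24 (87.5%) were within 500 bp upstream, against 53.8%. Such close placement was not particular to proteasome genes. Within 500 bp upstream were 85.3% of the sites of cytosolic ribosomal protein genes. The share was 81.25% for genes of ubiquitin and its activating and conjugating enzymes, and also for COP9 signalosome and eIF3 genes. It was 67.5% for mitochondrial ribosomal protein genes and 53.8% for genes of proteins that assist or regulate the proteasome. The median offset was -212 bp for proteasome genes and -318 bp for all genes. By place, 19 summits were intergenic, 3 were in exons and 2 in introns, those of rpt-4 and rpn-6.1. Worm mRNAs are often spliced to a leader, so an annotated 5′ end can be a splice site downstream of the true start, and distances are to the annotation.

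Proteasome genes often share their promoter region with another gene. A divergent partner means another gene whose 5′ end lies within 1000 bp upstream on the other strand. It was present at 22 of 33 proteasome genes (66.7%), against 18.7% of all genes. The share was 60.3% for cytosolic ribosomal protein genes and 40.0% for mitochondrial ones. Proteasome genes with a partner had a thresholded peak in 3 of 22 cases (13.6%), against 6.54% of all genes with a partner, and a pooled region in 17 of 22 (77.3%), against 51.5%. Without a partner, 1 of 11 proteasome genes (9.09%) had a thresholded peak, against 1.56% of all such genes, and 7 of 11 (63.6%) a pooled region, against 40.0%. Of the 24 pooled sites, 18 lay in the window of at least 1 other protein-coding gene, and for 7 of them the other gene's 5′ end was nearer. Neither share was computed over the sites of all genes. Only 6 proteasome genes had a window that overlapped no other gene's (18.2%), against 63.9% of all genes and 24.4% of cytosolic ribosomal protein genes. Of these 6 proteasome genes, 0 had a thresholded peak, against 1.24% of all genes with such a window. A pooled region was present at 4 of the 6 (66.7%), against 39.4%. How much of the signal belongs to the proteasome gene and how much to its neighbour cannot be told apart.

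Agreement between replicates was checked site by site. A region was listed within 100 bp of the pooled summit in both replicate lists for 15 of the 33 genes (45.5%), against 9.73% of all genes, and the larger of the 2 distances had a median of 37 bp and a maximum of 82 bp. As a share of the sites, this was 15 of 24 (62.5%), against 23.1% for all genes and 36.1% for genes with a divergent partner. For cytosolic ribosomal protein genes it was 66.2% of the sites and 57.7% of the genes, so such agreement was not highest at proteasome genes. The share of sites was lower in the other gene lists compared here, at most 43.75%, for COP9 signalosome and eIF3 genes. The replicate 1 list had a region at 25 of 33 genes (75.8%, against 41.4%) and the replicate 2 list at 24 (72.7%, against 42.4%). Of the proteasome genes, 20 were in both lists, a share that was not computed over all genes. Within the highest 689 regions, replicate 1 held rpn-3, rpn-7, rpt-2 and rpt-6, and replicate 2 held rpn-3, rpn-7, rpt-2 and rpn-9 (12.1% of proteasome genes in each, against 2.33% and 2.62% of all genes). Thus rpn-3, rpn-7 and rpt-2 were among the highest regions of either replicate, and rpt-6 and rpn-9 each of 1 only. The lists are not independent in 1 respect, since the same control served for both; its part in the shared sites was not tested.

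**Figure D4:**
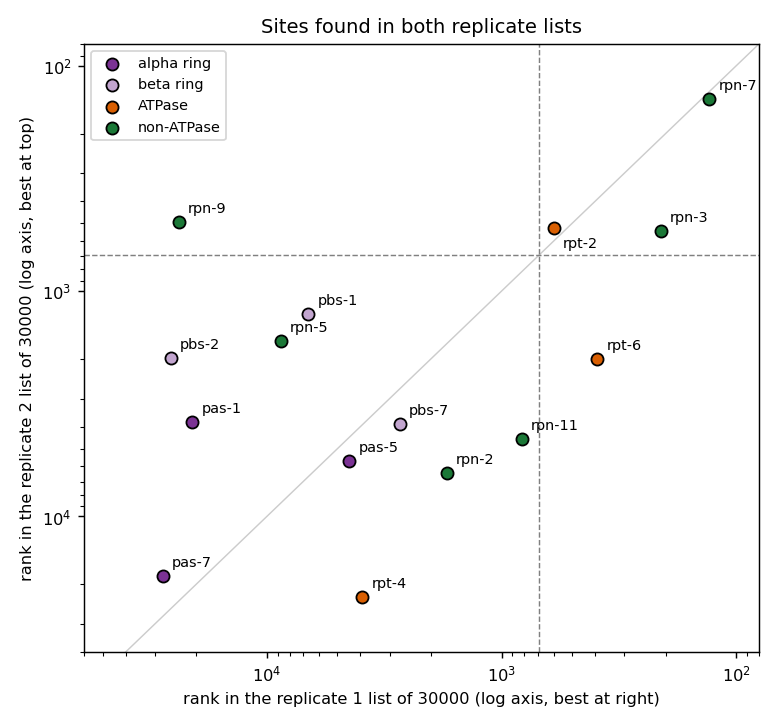
Rank in the replicate 1 list (x axis, best at right) and in the replicate 2 list (y axis, best at top), both log axes, of the 15 pooled sites found in both lists, coloured by subunit class; dashed lines mark rank 689. Only rpn-7, rpn-3 and rpt-2 are inside both lines, and rpn-9 ranks 494 in replicate 2 but 23779 in replicate 1.

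By base composition, most of the proteasome sites were richer in G and C than their flanks. The GC share of the window of 50 bp to either side of the summit had a median of 38.1% over the 24 proteasome sites (range 22.8% to 49.5%), against 34.7% over the windows of all genes and 50.5% over thresholded promoter peaks. It exceeded the mean of equal windows centred 200 bp to either side, whose median was 32.2%, at 19 of the 24 sites. Flanks were not measured for the sites of other genes, so this cannot be called particular to proteasome genes. Among the thresholded peaks the GC share was 48.5% at rpn-7, 45.5% at rpt-2, 42.6% at rpt-6 and 37.6% at rpn-3. Their flanks had 30.7%, 48.0%, 29.7% and 31.7% in the same order, so the rpt-2 site was below its flanks. No 32-base stretch of any of the 24 windows occurred elsewhere in the genome. The part of base composition in the signal was not tested.

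Other genes of the ubiquitin and proteasome pathway also had sites, and the strongest was at cdc-48.1. Over all protein-coding genes, 2.49% had a thresholded peak and 42.2% a pooled region. In lists of 20 and 24 genes, thresholded counts of 1 and 0 cannot be told from that 2.49%. Of 20 genes of proteins that assist or regulate the proteasome, 1 had a thresholded peak (5.00%), namely cdc-48.1 with a signal of 92.5 at rank 69 and a summit at -155 bp, above that of every proteasome promoter. It had 60.4 in replicate 1 and 32.2 in replicate 2, and no other gene shared it. In the pooled list 13 of these 20 had a region (65.0%), among them skn-1 with 16.9 at rank 2603. Of 24 genes for ubiquitin and its activating and conjugating enzymes, 0 had a thresholded peak and 16 (66.7%) a pooled region, the highest being the conjugating enzyme genes ubc-18 with 29.7, ubc-25 with 27.4 and ubc-9 with 24.8, and the polyubiquitin gene ubq-1 with 23.7. The COP9 signalosome and the translation initiation factor eIF3 are built on the same plan as the proteasome lid. Of their 18 genes, 2 had a thresholded peak, eif-3.C with 46.4 and eif-3.B with 40.3, and 16 (88.9%) a pooled region. The proteasome shares (12.1% and 72.7%) stand beside those of the 78 cytosolic ribosomal protein genes, of which 24 (30.8%) had a thresholded peak and 68 (87.2%) a pooled region, with a median of 24.9. The 70 mitochondrial ribosomal protein genes had 3 (4.29%) and 40 (57.1%). No test was made between these lists.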

How the data were processed

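ChIP-seq peak lists on ce11 were used: ranked lists of 30000 regions for each biological replicate and for both pooled, and the thresholded list of 689 regions, all of them also in the pooled list. Per the deposited notes, each replicate's technical libraries were merged and 1 control served both replicates. No source used here gives the aligner, the caller, any version or the IDR cut of the thresholded list. Signal values were deposited by the authors; they order and describe regions inside a list and are not scaled between lists. The lists give no counts, so depth is unknown. The ce10 lists were not used.

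Genes and 5′ ends came from Ensembl release 115 on WBcel235, whose chromosomes held every region, and sequence from RefSeq WBcel235; all 33 symbols matched RefSeq. Each gene took its highest region with a summit in the window. The window search was tested on simulated data. Work was done in Python 3.11.15 with pandas 2.3.3 and numpy 2.4.6. The members, lists and words were chosen with earlier results of these data known. All members may be named, with full values for those with a thresholded peak and the 6 next by pooled signal; of other genes, those sharing a thresholded peak or in a list with such a peak were named, and ubc-18, ubc-25, ubc-9, ubq-1, skn-1 and rad-23 were named after their values were seen. Window size, assignment to the nearest 5′ end, the outermost 5′ end, overlap in place of summit, either replicate alone and other thresholds were tried.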

Additional observations from a re-analysis of the deposited data

How the results depend on the processing

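The count of 4 proteasome genes with a thresholded peak fell to 2 (rpn-3 and rpt-6, against 1.73% of all genes) when each summit went only to the gene with the nearest 5′ end, and to 2 (rpn-3 and rpn-7, against 1.16%) for the 344 highest regions of the thresholded list. It was 8 for the 1378 highest regions of the pooled list, where pbs-1, rpn-2, rpn-9 and rpn-11 joined the 4 (against 4.97%). It was 5 with a window of 2000 bp, which adds pbs-5 (against 3.41%). Leaving out a replicate gave 4 in either case, with rpn-9 in place of rpt-6 without replicate 1. The pooled count of 24 lay between 19 (nearest 5′ end, against 35.9% of all genes) and 26 (2000 bp window, against 55.9%). The pooled median signal of 16.4 was 17.6 with a window of 500 bp upstream and 100 bp downstream, 15.6 by the nearest 5′ end, 14.4 by the outermost 5′ end and 12.9 with unlisted genes at 0. Without replicate 1 it was 6.49 and without replicate 2 it was 9.90, against 4.83 and 8.28 for all genes, because each replicate list has its own scale. For the 10 genes described in full, 48 pooled signals were unaltered by the other windows, 5′ ends and overlap, and the 20 values from a replicate list alone differed, again on another scale. By the nearest 5′ end, rpn-7 and rpt-2 had no region left. Counts on ce10 were not run, as no annotation of that build was used. No paired analysis was possible because there is 1 group. Unknown depth limits what an unlisted gene means: it shows only that no region there entered the list.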

Other observations

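Further sites lie inside or beside proteasome genes but outside the promoter windows. In rpn-8, an intronic region at 794 bp downstream of the 5′ end had a pooled signal of 27.9 at rank 789, above the 10.8 of its promoter region, with 24.3 in replicate 1 and none in replicate 2; it lies within 200 bp of the snoRNA gene R12E2.17. A second rpn-8 intron region, 1001 bp downstream, had 13.1, with none in replicate 1 and 15.0 in replicate 2. Upstream of rpt-6, the histone variant gene his-72 had an intronic region at -1414 bp from rpt-6 with 23.5, and 13.0 in replicate 1 and 10.6 in replicate 2. The summit of that region was 8 bp from a 5′ end of his-72. Downstream of pas-3, which has no promoter region, a region at 1085 bp had 18.1 and lay 52 bp from the 5′ end of chp-1.

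Words that an earlier look at these data had found at strong peaks were at the proteasome summits about as often as at those of all genes. CGCGCA was in 1 of 24 windows (4.17%, at rpn-11), against 3.89% of all windows, GCGCAC in 1 of 24 (4.17%, at pbs-7), against 4.04%, and CGAACC in 0 of 24, against 1.84%. Thresholded promoter windows, to which only 4 of the 24 belong, held them in 18.7%, 20.7% and 5.10% of cases. TATAAA was in 0 of 24 windows, against 12% of all windows, and CACGTG in 1 of 24 (pas-5), against 1.64%. All were searched on both strands, and CGCGCA and GCGCAC can overlap.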
